A study of Mus musculus with 4 samples.

Results

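Footprints on 34 genes of glycolysis and the hypoxia response were followed in mouse embryonic stem cells (ESCs) and in embryoid bodies (EBs), the floating aggregates in which such cells differentiate. The genes were named one by one and looked up by symbol among the RefSeq coding sequences of the deposited table, with Ero1l found under its present symbol Ero1a, and the coding sequences of a gene were summed. All 34 were in the table of 20716 genes, 28 of them had at least 1 read, and 25 passed the limit used for comparisons, a mean normalised count of at least 25 over the 4 libraries, which 9670 genes passed in all. Ribosome profiling sequences the mRNA stretches that ribosomes shield from nuclease, so a count reflects both mRNA amount and ribosome occupancy. The 4 groups were Mettl3 knockout (KO) EBs, wild-type (WT) EBs, KO ESCs and WT ESCs, all labelled C57BL/6, with 1 library each. Mettl3 is the catalytic subunit of the enzyme that writes N6-methyladenosine on mRNA. ESCs were held in the naive state without serum, with LIF, the GSK3 inhibitor CHIR99021 (1 to 3 µM) and the MEK inhibitor PD0325901 (1 µM), and EBs grew in medium with 15% serum and were collected between day 8 and day 21. The sources used here do not give the day of each EB library, the number of clones or the altered part of Mettl3. With 1 library each, loss of Mettl3 and a difference between lines or libraries cannot be told apart.

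Gene reads numbered 4075850 in KO EBs, 4234361 in WT EBs, 11455539 in KO ESCs and 8570204 in WT ESCs, and 1 read was worth a normalised count of 1.49 in KO EBs, 1.56 in WT EBs, 0.533 in KO ESCs and 0.778 in WT ESCs. The 4 libraries had no replicates, so differences are given with both values and the 95% exact binomial interval of the ratio, which covers counting error only, and without a p-value. A gene was counted as higher or lower when 2-fold apart or more on the log2(value + 1) scale. Mettl3 itself stood at 327 in KO EBs, 429 in WT EBs, 298 in KO ESCs and 563 in WT ESCs; counts over the whole coding sequence give no check of a small deletion. In whole EBs a change in the share of a cell type and a change within cells cannot be told apart.

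Glycolysis takes glucose through membrane transporters, phosphorylates and splits it in preparatory steps, and recovers ATP in payoff steps that end in pyruvate. Pyruvate then enters mitochondria or is reduced to lactate and exported. At low oxygen the prolyl hydroxylases of the EGLN family stop marking the transcription factor HIF1 for destruction, and HIF1 raises many of the same enzymes together with genes such as Bnip3 and Pdk1. Naive mouse ESCs are known to use glycolysis and respiration side by side.

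The deposited counts did not reach all steps of the pathway evenly. Of the 5 payoff-step genes, 1 passed the limit (Pgk1), whereas all 4 genes of glucose uptake and hexokinase and 7 of the 8 preparatory-step genes did. Reads that align to several places were set aside before counting, as were reads on a stretch shared by several RefSeq entries. To see which genes this affects, all 28-nt stretches (windows) of the members' coding sequences were looked up on both strands of the assembled GRCm38 chromosomes, and windows that touch a second entry of the table were marked. The glycolytic enzymes are known for their many processed pseudogenes. For Gapdh, the dehydrogenase that opens the payoff steps (chromosome 6, 125161852 to 125166467), all 975 windows had a copy elsewhere, at 346 loci of which 295 overlapped an annotated pseudogene. Gapdh had 18 reads in KO EBs, 9 in WT EBs, 35 in KO ESCs and 27 in WT ESCs. The kinase Pgk1 and the mutase Pgam1 also had every window copied, at 7 and 8 loci, with 95 and 46 reads over the 4 libraries. For the lactate dehydrogenase chain Ldha, 5.67% of windows were neither copied nor shared, and 11 reads were found in all.

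The windows with the most copies outside their own gene show what a footprint of this length has to be placed by. They are given for 3 payoff-step genes in which that window lies within 1 exon. For Pkm the place of this window was not looked up. The Gapdh window occurs 136 more times in the genome, the Eno1 window 8 more times and the Pgam1 window 5 more times.
Gapdh, chr6:125162917-125162944, minus strand: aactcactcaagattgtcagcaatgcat
Eno1, chr4:150245137-150245164, plus strand: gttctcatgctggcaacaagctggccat
Pgam1, chr19:41916708-41916735, plus strand: tgccagagcactgcccttctggaatgaa

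No read was listed for Pfkm, Eno1, Pkm, Slc16a3, P4ha2 and Vegfa, so that no level can be given for them. Pfkm (muscle phosphofructokinase), Slc16a3 (the lactate exporter MCT4) and Vegfa (the angiogenic growth factor) have 3, 3 and 9 entries in the table and share 100% of their windows between entries. Enolase Eno1 had 121 windows, pyruvate kinase Pkm 190 and the collagen prolyl hydroxylase subunit P4ha2 72 that were neither copied nor shared, and still no read; what kept reads from them was not tested. Over all genes of the table, 68.3% of those with 2 or more entries had no read, against 21.9% of those with 1 entry. Of the 25 members that passed, 15 had over 95% of their windows in 1 place and 1 entry, and these carry the main results. The other 10 were Gpi1, Tpi1, Ldhb, Aldoa, Hk1, Higd1a, Bnip3, Bnip3l, Pfkfb3 and Pgk1. The members nearest to the limit were Pgk1 with a mean of 25.2 and, below it, Gapdh with 20.1.

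**Figure D1:**
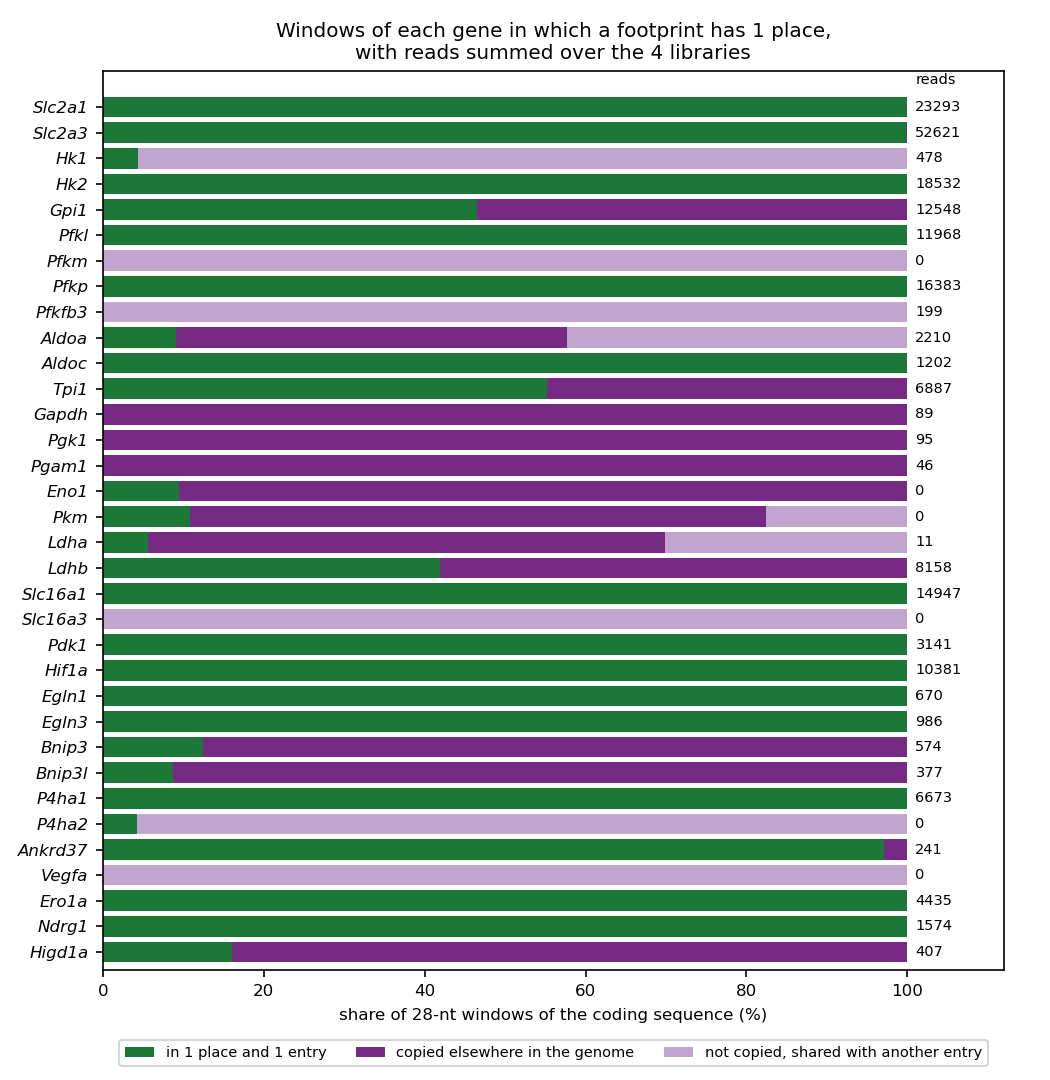
Share of the 28-nt windows of each coding sequence (x axis, %) that lie in 1 place and 1 entry, that are copied elsewhere in the genome, or that are shared with another RefSeq entry without being copied; figures at the right are reads summed over the 4 libraries. Gapdh, Pgk1 and Pgam1 are copied over their whole length, and Pfkm, Pfkfb3, Slc16a3 and Vegfa are shared over theirs.

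Among the 15 members with nearly all windows countable, Slc2a3 had the highest level per length of coding sequence in every library. Members with copied or shared windows cannot be ranked with them. Slc2a3 (GLUT3, chromosome 6, 122727809 to 122802363), a high-affinity transporter of embryonic and neural cells, had an RPKM, gene reads scaled for coding length and depth, of 1845 in KO EBs, 1522 in WT EBs, 893 in KO ESCs and 1319.6 in WT ESCs, which placed it at percentile 99.76 or above among 9597 genes in each library. Slc2a1 (GLUT1), the basal transporter of most cells, followed among these 15 in every library. It stood at 1091.5 in KO EBs, 844 in WT EBs, 346 in KO ESCs and 439 in WT ESCs. The lactate and pyruvate carrier Slc16a1 (MCT1) held 351 in KO EBs, 674 in WT EBs, 297 in KO ESCs and 280.0 in WT ESCs in RPKM. Hexokinase Hk2, which traps glucose in the cell by phosphorylation, ranged from 157 in WT EBs to 274 in WT ESCs. Among the 15 members with nearly all windows countable, the oxygen sensor Egln1 was the lowest in both EB libraries, with 19.99 in KO EBs and 15.1 in WT EBs. In ESCs the hypoxia-induced ankyrin-repeat gene Ankrd37 was the lowest, with 12.4 in KO and 12.9 in WT.

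**Figure D2:**
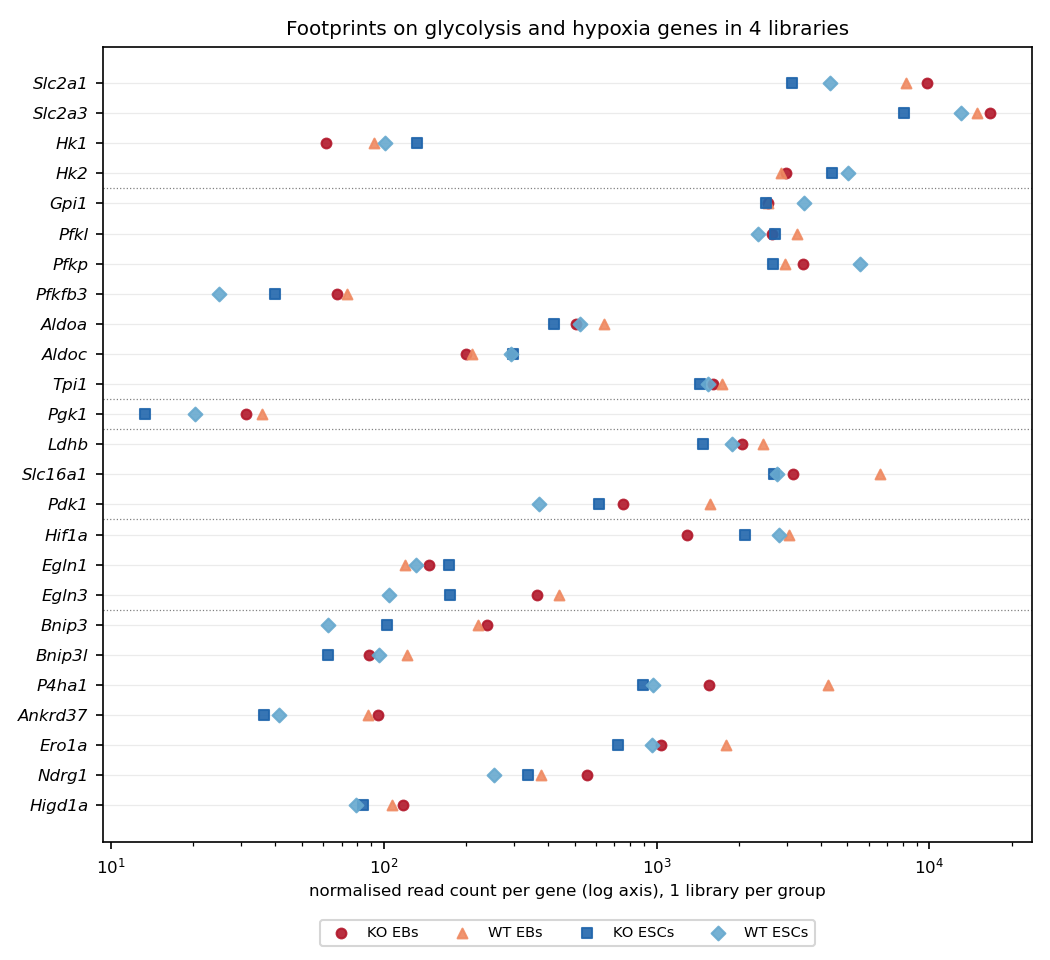
Normalised read count (x axis, log scale) of the 25 members that passed, in KO EBs, WT EBs, KO ESCs and WT ESCs; each point is 1 library and dotted lines separate roles in the pathway. WT EBs stand apart to the right for Slc16a1, Pdk1 and P4ha1, and KO EBs stand lowest for Hif1a.

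The first comparison set KO EBs against WT EBs. Glucose uptake and the preparatory steps of glycolysis stayed within 2-fold. The 7 further hypoxia targets among the members that passed did not move together. On the log2 scale 4 of them were above 0 and 3 below 0 (median 0.11), and 1, P4ha1, was 2-fold lower. P4ha1, Hif1a, Pdk1 and Slc16a1 were 2-fold lower or more, and no member was 2-fold higher. These 4 of 25 members make 16%, against 12.2% of all 9670 genes, so the share lay near that of the other genes; 15.2% of all genes were 2-fold higher or more. The median log2 fold was −0.12 over the members and −0.07 over all genes. All 4 had 100% of their windows countable.

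P4ha1, the catalytic subunit of the enzyme that hydroxylates proline in collagen (chromosome 10, 59323197 to 59373304), stood at 1558 in KO EBs, 4239 in WT EBs, 889.8 in KO ESCs and 966 in WT ESCs. WT EBs were high and the 3 other libraries lower, and KO EBs were 2.72-fold below WT EBs (interval 2.53 to 2.92). Hif1a, the oxygen-regulated subunit of HIF1 (chromosome 12, 73901324 to 73947554), stood at 1296 in KO EBs, 3047 in WT EBs, 2107 in KO ESCs and 2808 in WT ESCs. Here KO EBs were the low library, 2.35-fold below WT EBs (2.17 to 2.55). Pdk1, the kinase that shuts the pyruvate dehydrogenase complex (chromosome 2, 71873215 to 71903858), stood at 754 in KO EBs, 1574 in WT EBs, 613 in KO ESCs and 371 in WT ESCs, 2.09-fold lower in KO EBs (1.87 to 2.33). Slc16a1 (chromosome 3, 104638664 to 104658462) stood at 3163 in KO EBs, 6591 in WT EBs, 2690.1 in KO ESCs and 2768 in WT ESCs, 2.08-fold lower in KO EBs (1.98 to 2.20). Its 3 other libraries lay close together and WT EBs stood above them. Under equal totals of gene reads, or TMM factors, Pdk1 and Slc16a1 were no longer 2-fold apart and 2 members were lower. The oxidase Ero1a, which drives disulfide formation in the endoplasmic reticulum, pointed the same way with 1034 in KO EBs and 1791 in WT EBs, 1.73-fold lower (1.57 to 1.90).

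The remaining members differed less between KO and WT EBs. Slc2a1 stood at 9822 in KO EBs and 8235 in WT EBs, 1.19-fold higher (1.15 to 1.24), and Slc2a3 at 16633 in KO EBs and 14887 in WT EBs, 1.12-fold higher (1.09 to 1.15). Hk2 stood at 2975 in KO EBs and 2857 in WT EBs, and its interval of the ratio, 0.977 to 1.11, held 1. Glucose-6-phosphate isomerase Gpi1 stood at 2557 in KO EBs and 2568.5 in WT EBs, again with 1 inside its interval (0.938 to 1.08 for the fold by which it was lower). The hypoxia target Ndrg1, a stress-response gene, had the highest ratio of the members, at 554 in KO EBs and 377 in WT EBs, 1.47-fold (1.25 to 1.73). Its ESC values were 339 in KO and 254 in WT, so that KO stood above WT at both stages. The intervals of 12 of the 25 members held 1, those of 9 lay below it and those of 4 above it. Intervals were not counted over all genes, so these numbers have no background to be set against.

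Markers of other cell types differed in this comparison too. All 19 visceral endoderm markers that passed, of 20 listed, were 2-fold lower or more in KO EBs, and their summed level was 3615 in KO EBs, 64933 in WT EBs, 1151 in KO ESCs and 714 in WT ESCs. Of the 14 mesenchyme and matrix markers that passed, of 20 listed, 11 were 2-fold higher or more, with a summed level of 20921 in KO EBs and 11939.9 in WT EBs. Dab2 in the endoderm list and Fn1, Pdgfra, Pdgfrb, Dcn and Postn in the matrix list had no read in any library. The summed level of 14 naive pluripotency markers was 27486 in KO EBs and 17489.9 in WT EBs, and that of 11 trophoblast markers 5262 in KO EBs and 6418 in WT EBs. Most trophoblast markers went against their sum. Of the 8 that passed, 6 were above 0 on the log2 scale in KO EBs against WT EBs (median 0.39). Ascl2 and Hand1 were 2-fold higher or more, and the 2 below 0 were Krt8 and Krt18, within 2-fold. The part of these cell types in the differences of P4ha1, Hif1a, Pdk1 and Slc16a1 was not tested.

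**Figure D3:**
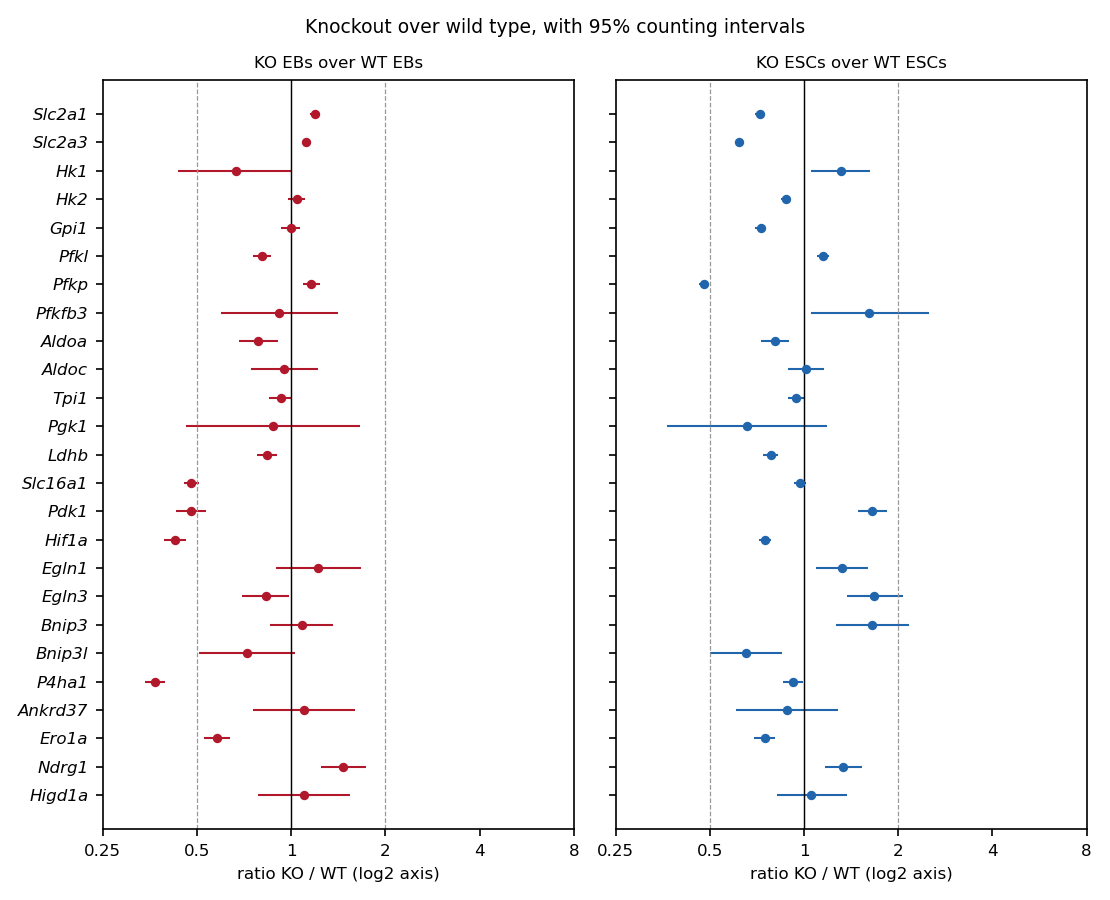
Ratio of KO to WT (x axis, log2 scale) in EBs at the left and in ESCs at the right for the 25 members that passed; points are ratios of single libraries, bars are 95% counting intervals and dashed lines mark 2-fold. In EBs P4ha1, Hif1a, Pdk1 and Slc16a1 lie at or beyond the lower dashed line, and in ESCs Pfkp does.

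Because genes of this set are induced through HIF1 in many tissues, the 250 bases before the transcript start were searched for the core of the hypoxia response element, written as ACGTG or GCGTG on either strand. CACGTG holds the first motif on both strands and counts for each. Starts are those of the RefSeq promoter table, and a gene span given here joins all its transcripts, so that the Hif1a stretch shown lies inside the Hif1a span, before a later start, and those of P4ha1 and Pdk1 reach into theirs. RefSeq promoters of GRCm38.p6 were found for 31 of the 34 members (not for Slc2a3, Bnip3l and Ndrg1). Of these 31, 26 held a match (83.9%), against 58.6% of 7709 genes with a mean of at least 25 and a promoter in the table, and 38.6% of all 27025. ACGTG alone was present in 17 of 31 members (54.8%), 22.3% of the genes with a mean of at least 25 and 16.6% of all. Of the 22 members that passed this mean and had a promoter, 19 held either motif (86.4%) and 13 held ACGTG (59.1%). A match is a description of the letters and not evidence of binding, and many members are on the list because they were reported as HIF1 targets. The sequences of the 4 genes lower in KO EBs are shown together with Bnip3, which was higher in EBs of both genotypes (below), with matches in capitals. P4ha1 held 3 matches, Pdk1 1, Slc16a1 4, Hif1a 3 and Bnip3 5, and genes on both sides of the 2-fold limit therefore had several.
P4ha1, chr10:59323046-59323295, plus strand: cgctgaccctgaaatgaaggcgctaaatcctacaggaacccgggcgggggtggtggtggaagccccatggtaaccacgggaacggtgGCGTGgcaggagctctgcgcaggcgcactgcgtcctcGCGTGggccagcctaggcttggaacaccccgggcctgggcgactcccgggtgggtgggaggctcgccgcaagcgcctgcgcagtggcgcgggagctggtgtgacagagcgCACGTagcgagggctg
Pdk1, chr2:71872974-71873223, plus strand: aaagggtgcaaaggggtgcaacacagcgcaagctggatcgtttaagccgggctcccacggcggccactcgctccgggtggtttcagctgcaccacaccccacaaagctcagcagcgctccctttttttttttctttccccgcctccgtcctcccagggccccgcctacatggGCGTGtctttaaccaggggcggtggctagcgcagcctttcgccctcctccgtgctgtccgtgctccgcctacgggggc
Slc16a1, chr3:104638414-104638663, plus strand: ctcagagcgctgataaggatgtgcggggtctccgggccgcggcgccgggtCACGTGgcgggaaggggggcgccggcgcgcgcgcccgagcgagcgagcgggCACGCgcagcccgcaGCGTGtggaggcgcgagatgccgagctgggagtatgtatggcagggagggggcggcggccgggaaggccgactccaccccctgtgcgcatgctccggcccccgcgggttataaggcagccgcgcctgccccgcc
Hif1a, chr12:73907617-73907866, plus strand: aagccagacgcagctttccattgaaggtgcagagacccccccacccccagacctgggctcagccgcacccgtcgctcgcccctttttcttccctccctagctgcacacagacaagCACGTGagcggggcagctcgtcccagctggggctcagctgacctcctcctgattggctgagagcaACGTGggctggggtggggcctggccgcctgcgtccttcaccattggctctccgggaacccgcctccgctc
Bnip3, chr7:138909507-138909756, minus strand: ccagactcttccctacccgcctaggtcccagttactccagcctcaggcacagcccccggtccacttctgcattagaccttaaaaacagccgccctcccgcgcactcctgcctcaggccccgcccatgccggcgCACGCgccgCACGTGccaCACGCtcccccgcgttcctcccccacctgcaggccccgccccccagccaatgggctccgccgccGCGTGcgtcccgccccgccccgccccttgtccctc

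In naive ESCs, KO was likewise set against WT. Pfkp was the member at least 2-fold lower in KO ESCs, while both glucose transporters lay below WT ESCs, and Pdk1, Egln3 and Bnip3 above them, by less than 2-fold. Pfkp makes up 4% of the 25 members against 4.42% of all genes. No member was 2-fold higher, against 10.6% of all genes. Intervals lay below 1 for 12 members, above 1 for 8 and held 1 for 5, again without a count over all genes.

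Pfkp, the platelet-type phosphofructokinase (chromosome 13, 6579874 to 6649060), stood at 3435 in KO EBs, 2961 in WT EBs, 2674 in KO ESCs and 5581 in WT ESCs. WT ESCs were high and the others lower, with KO ESCs 2.09-fold below WT ESCs (2.01 to 2.16). Scaled to the same total of gene reads, the log2 fold was −0.93 and the gene was no longer 2-fold apart. The liver-type isozyme Pfkl (chromosome 10, 77986947 to 78009807), which catalyses the same committed step, went the other way, with 2645 in KO EBs, 3281 in WT EBs, 2704 in KO ESCs and 2352 in WT ESCs, 1.15-fold higher in KO ESCs (1.10 to 1.20). A ratio of the isozymes within a library needs no scaling between libraries. Pfkl held 43.5% of the reads of the pair in KO EBs (exact interval 42.0 to 45.0), 52.6% in WT EBs (51.0 to 54.1), 50.3% in KO ESCs (49.3 to 51.3) and 29.7% in WT ESCs (28.8 to 30.5). Per kilobase of coding sequence, 2343 nt for Pfkl and 2355 nt for Pfkp, the ratio of Pfkl to Pfkp was 0.774 in KO EBs, 1.11 in WT EBs, 1.02 in KO ESCs and 0.424 in WT ESCs. The mix of isozymes thus leaned to Pfkl in KO ESCs relative to WT ESCs, and to Pfkp in KO EBs relative to WT EBs. Pfkm, the third isozyme, was listed at 0 and has no place in these shares.

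**Figure D4:**
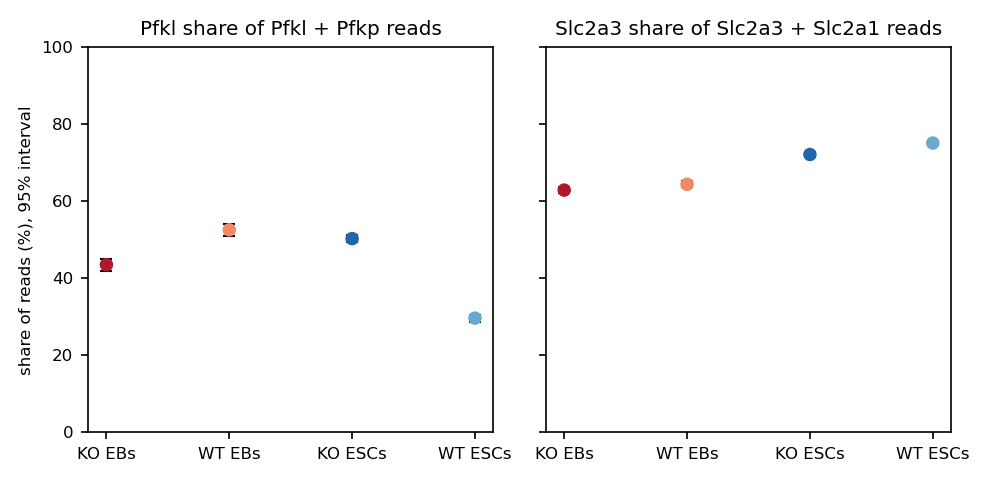
Share of Pfkl among Pfkl and Pfkp reads (left) and of Slc2a3 among Slc2a3 and Slc2a1 reads (right) in KO EBs, WT EBs, KO ESCs and WT ESCs (y axis, %); points are single libraries and bars exact 95% binomial intervals, some smaller than the point. The Pfkl share is lowest in WT ESCs at 29.7%.

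Both glucose transporters were lower in KO ESCs. Slc2a3 stood at 8090.2 in KO ESCs and 13045 in WT ESCs, 1.61-fold lower (1.58 to 1.65). Slc2a1 stood at 3129 in KO ESCs and 4329.9 in WT ESCs, 1.38-fold lower (1.33 to 1.44). Their mix shifted less than that of the phosphofructokinases, with Slc2a3 holding 62.9% of the reads of the pair in KO EBs, 64.4% in WT EBs, 72.1% in KO ESCs and 75.1% in WT ESCs. Gpi1 was 1.38-fold lower in KO ESCs (1.32 to 1.43), although 53.5% of its windows are copied, and Hk2 1.15-fold lower (1.11 to 1.18). Hif1a was 1.33-fold lower (1.27 to 1.39) and Ero1a 1.34-fold lower (1.24 to 1.44).

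Of the 7 further hypoxia targets that passed, 3 were above 0 and 4 below 0 on the log2 scale in KO ESCs, with a median of −0.12. The members highest in KO ESCs relative to WT ESCs stayed within 2-fold. Pdk1 was 1.65-fold higher in KO ESCs (1.48 to 1.84). Egln3, the hypoxia-inducible prolyl hydroxylase, stood at 175 in KO ESCs and 104 in WT ESCs, 1.68-fold higher (1.37 to 2.07). Bnip3, a mitophagy receptor, stood at 102 in KO ESCs and 62.3 in WT ESCs, 1.65-fold higher (1.26 to 2.16), with 12.5% of its windows countable. Its paralog Bnip3l, with 8.73% countable, stood at 62.4 in KO ESCs and 95.7 in WT ESCs, 1.53-fold lower (1.18 to 1.99). P4ha1, Slc16a1, Aldoc, Tpi1 and Higd1a, a hypoxia-induced mitochondrial protein, were at most 1.09-fold apart in these libraries. No member was 2-fold apart between KO and WT at both stages. In ESCs too, markers differed. The summed level of naive pluripotency markers was 26140.2 in KO ESCs and 37693 in WT ESCs, and that of mesenchyme and matrix markers 7799 in KO ESCs and 6068 in WT ESCs. Sums hide the lower members of a list: 13 of the 14 matrix markers that passed were 2-fold higher or more in KO ESCs (median log2 fold 1.71), as were 7 of 8 trophoblast markers (median 1.63), of 11 listed. The summed level of the trophoblast list was 1342 in KO ESCs and 418 in WT ESCs, with Elf5 and Eomes at 0 in all libraries. The part of these cell types in the differences of the members was not tested.

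The remaining comparisons followed each genotype from ESCs to EBs, KO first. In KO cells the glucose transporters and several hypoxia genes were higher in EBs. Slc2a1, Slc2a3, Pgk1, Egln3, Bnip3 and Ankrd37 were 2-fold higher or more and Hk1 was 2-fold lower, so that 24% of the 25 members were higher, against 9.31% of all genes, and 4% lower, against 6.65%. In WT cells Pfkfb3, Slc16a1, Pdk1, Egln3, Bnip3, P4ha1 and Ankrd37 reached 2-fold higher and no member was 2-fold lower, or 28% of the members against 11.0% of all genes higher, and 8.25% of all genes lower. The median log2 fold was 0.48 in KO cells, against −0.08 over all genes, and 0.43 in WT cells, against −0.02.

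Egln3, Bnip3 and Ankrd37 were 2-fold higher in both genotypes, 3 of the 6 in KO and of the 7 in WT. Egln3 (chromosome 12, 54178981 to 54203874) stood at 363 in KO EBs, 438 in WT EBs, 175 in KO ESCs and 104 in WT ESCs, 2.07-fold higher in KO EBs than KO ESCs (1.75 to 2.45) and 4.20-fold higher in WT EBs than WT ESCs (3.41 to 5.20). Bnip3 stood at 239 in KO EBs, 221 in WT EBs, 102 in KO ESCs and 62.3 in WT ESCs, 2.33-fold higher in KO (1.88 to 2.89) and 3.55-fold higher in WT (2.68 to 4.74). For both genes the 2 EB libraries lay above the 2 ESC libraries. Ankrd37 stood at 95.5 in KO EBs, 87.3 in WT EBs, 36.3 in KO ESCs and 41.3 in WT ESCs, 2.63-fold higher in KO (1.84 to 3.76) and 2.12-fold higher in WT (1.43 to 3.14), the WT value dropping under 2-fold with a pseudocount of 10. All 7 further hypoxia targets that passed were above 0 on the log2 scale in EBs of both genotypes, with medians of 0.71 in KO and 0.89 in WT. How many of all genes were above 0 in both was not counted. Their highest were Ankrd37 in KO and P4ha1 in WT, and their lowest Higd1a (0.49) in KO and Bnip3l (0.34) in WT. The WT intervals of Bnip3l (0.944 to 1.70) and Higd1a (0.983 to 1.86) held 1. Reported hypoxia targets outside the member list were less uniform. Of 20 that passed, 15 were above 0 and 5 below 0 in KO (median 0.44), and 11 above and 9 below in WT (median 0.27).

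Among the members, Slc2a1 differed most between stages in KO cells. Slc2a1 was 3.14-fold higher in KO EBs than KO ESCs (3.03 to 3.25) and 1.90-fold higher in WT EBs than WT ESCs (1.83 to 1.98). Slc2a3 was 2.06-fold higher in KO (2.01 to 2.11) and 1.14-fold higher in WT (1.11 to 1.17). Part of this gap lay in the ESC libraries, where both transporters were lower in KO. Pgk1, all of whose windows are copied, stood at 31.3 in KO EBs, 35.8 in WT EBs, 13.3 in KO ESCs and 20.2 in WT ESCs, from 21 to 26 reads a library. It was 2.35-fold higher in KO EBs than KO ESCs (1.25 to 4.37), and in WT its interval held 1. The hexokinase Hk1, with 4.34% of windows countable, stood at 61.2 in KO EBs, 92.0 in WT EBs, 132 in KO ESCs and 101.2 in WT ESCs, 2.16-fold lower in KO EBs than KO ESCs (1.55 to 3.09). With a pseudocount of 10 neither gene was 2-fold apart.

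In WT cells P4ha1, Pdk1 and Egln3 differed most between stages, followed by Bnip3, Pfkfb3, Slc16a1 and Ankrd37. P4ha1 was 1.75-fold higher in KO EBs than KO ESCs (1.62 to 1.89) and 4.39-fold higher in WT EBs than WT ESCs (4.10 to 4.70). Pdk1 was 1.23-fold higher in KO (1.11 to 1.37) and 4.24-fold higher in WT (3.80 to 4.74). Slc16a1 was 1.18-fold higher in KO (1.12 to 1.24) and 2.38-fold higher in WT (2.28 to 2.49). These WT values and the KO against WT comparison of EBs use the same WT EB library, so they are not separate evidence. The regulatory kinase-phosphatase Pfkfb3, which makes the activator of phosphofructokinase, stood at 67.2 in KO EBs, 73.3 in WT EBs, 40.0 in KO ESCs and 24.9 in WT ESCs. It was 1.68-fold higher in KO EBs than KO ESCs (1.13 to 2.46) and 2.94-fold higher in WT EBs than WT ESCs (1.84 to 4.76), on 32 to 75 reads a library, all on 1 of its 8 entries.

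Hk2 and Aldoc stood lower in EBs in both genotypes, within 2-fold. Hk2 (chromosome 6, 82725025 to 82774454) stood at 2975 in KO EBs, 2857 in WT EBs, 4394 in KO ESCs and 5034 in WT ESCs, 1.48-fold lower in EBs in KO (1.41 to 1.55) and 1.76-fold lower in WT (1.67 to 1.86). The brain-type aldolase Aldoc stood at 200.02 in KO EBs, 210.4 in WT EBs, 297 in KO ESCs and 293 in WT ESCs, 1.48-fold lower in KO EBs (1.23 to 1.804) and 1.39-fold lower in WT EBs (1.14 to 1.71). For both, the EB libraries lay below the ESC libraries. The ubiquitous aldolase Aldoa, with 9.11% of its windows countable, stood at 504.5 in KO EBs, 642 in WT EBs, 421 in KO ESCs and 522 in WT ESCs. It was 1.20-fold higher in EBs in KO (1.05 to 1.36) and 1.23-fold higher in WT (1.08 to 1.39). The lactate dehydrogenase chain Ldhb stood at 2063 in KO EBs, 2462 in WT EBs, 1477 in KO ESCs and 1889 in WT ESCs, 1.40-fold higher in EBs in KO (1.31 to 1.49) and 1.30-fold higher in WT (1.22 to 1.39). Triose phosphate isomerase Tpi1, with 55.2% of windows countable, stood at 1614 in KO EBs, 1742 in WT EBs, 1447 in KO ESCs and 1538 in WT ESCs, with little spread between the libraries. Egln1, the main oxygen sensor, stood at 146 in KO EBs, 120.0 in WT EBs, 174 in KO ESCs and 131.5 in WT ESCs, higher in both KO libraries than in the WT library of the same stage, with an interval that held 1 in EBs (0.895 to 1.66) and not in ESCs (1.09 to 1.60). Of the 25 members, 17 were above 0 on the log2 scale in both genotypes and 4 below 0 in both. The share of all genes with the same sign in both genotypes was not counted. Of 19 visceral endoderm markers, 16 in KO and 19 in WT were 2-fold higher in EBs, and their part in these differences was not tested.

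**Figure D5:**
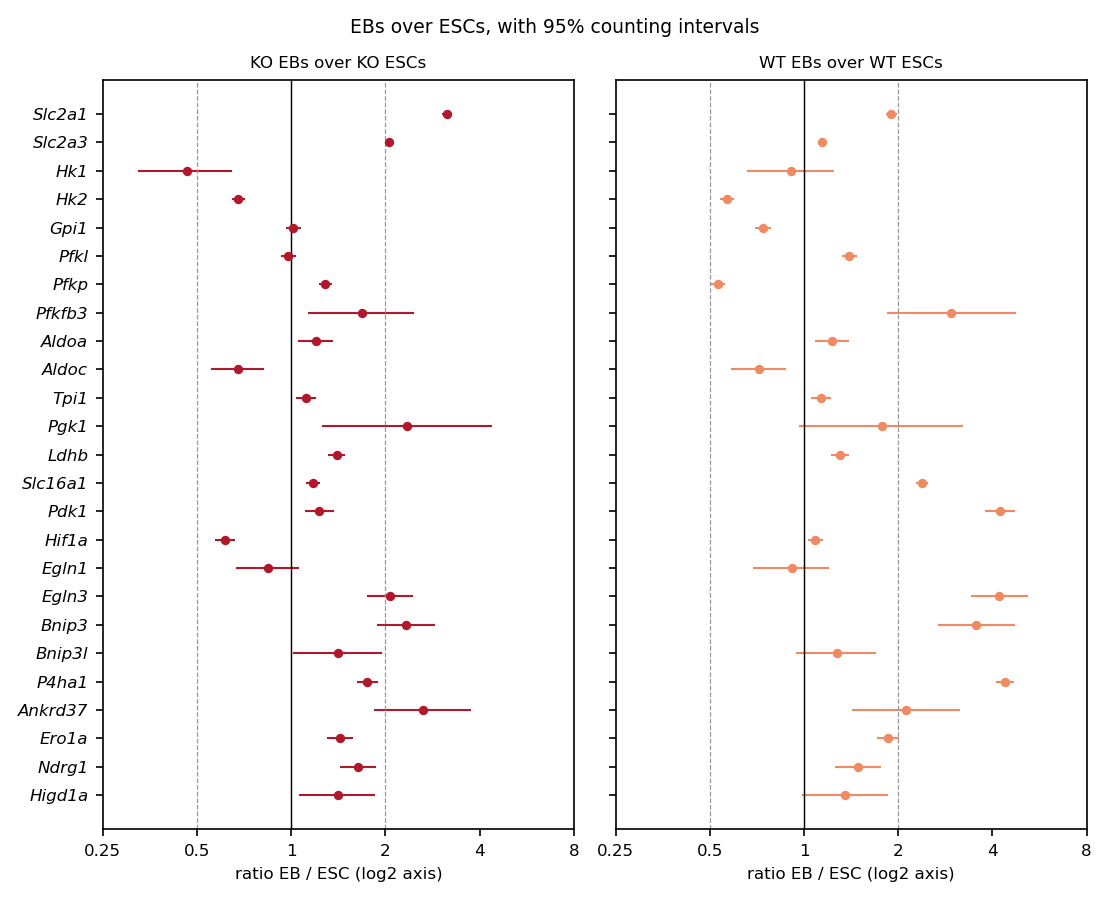
Ratio of EBs to ESCs (x axis, log2 scale) in KO cells at the left and in WT cells at the right for the 25 members that passed; points are ratios of single libraries, bars are 95% counting intervals and dashed lines mark 2-fold. P4ha1, Pdk1 and Egln3 lie above 4-fold in WT cells and at or below 2.07-fold in KO cells.

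With the 2 genotypes taken as replicates of a stage, a count test was possible on recovered reads. edgeR's quasi-likelihood test was run with Benjamini-Hochberg adjustment over 9670 genes and with genotype as covariate. It called 20 genes higher (0.207%) and 5 lower (0.0517%) in EBs, none of them a member. At an unadjusted p under 0.05 it would take 1140 of the 9670 genes, 6 of them members. The lowest adjusted p-values among members by edgeR were 0.164 for P4ha1 (log2 fold 1.495), 0.178 for Egln3 (1.58), 0.203 for Bnip3 (1.54) and 0.205 for Slc2a1 (1.31), each higher in EBs in both genotypes. DESeq2 called 3 members, Slc2a1 (adjusted p 0.00517), P4ha1 (0.00578) and Egln3 (0.0331). Between KO and WT, with stage as covariate, edgeR called 0 genes in either direction (0.0%). At an unadjusted p under 0.05 edgeR would take 1556 genes, Hif1a being the only member among them (p 0.0325), and at its adjusted threshold DESeq2 took 251 as higher and 71 as lower, none a member. Hif1a had the lowest adjusted p of the members there by edgeR, 0.272, with a log2 fold of −0.80 and lower values in KO at both stages.

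The EB change of KO cells minus that of WT cells was then taken per gene on the log2 scale, and a difference of 1 or more was counted. It was 1 or more below 0 for Pdk1 (−1.78), P4ha1 (−1.32), Slc16a1 (−1.02) and Egln3 (−1.01), 16% of the members against 12.5% of all genes. It was 1 or more above 0 for Pfkp (1.28), 4% against 11.4%. The shares were thus near or under those of all genes. For Slc16a1 and Egln3 the difference was under 1 in size with TMM factors. None of these differences has a replicate check.

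Neighbouring pathways were described from lists of 95 further genes, of which 67 passed. Between KO and WT EBs, 2-fold differences were found for 9 of the 67 upward and 8 downward, and their median was −0.07 on the log2 scale, that of all genes. Of 12 further glycolytic isozymes 5 were higher and 2 lower in KO EBs. The neuronal enolase Eno2 stood at 116 in KO EBs and 18.7 in WT EBs, 6.23-fold higher (3.37 to 12.6). The intracellular glucose transporter Slc2a8 had the lowest ratio of WT EBs to WT ESCs among those reaching 100, with 290 in WT EBs and 530.0 in WT ESCs, 1.83-fold lower (1.55 to 2.16).

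Of 11 genes of gluconeogenesis and glycogen 2 were higher and 2 lower in KO EBs. The muscle-type fructose bisphosphatase Fbp2 stood at 296 in KO EBs, 23.4 in WT EBs, 520.1 in KO ESCs and 166 in WT ESCs, with WT EBs low and KO EBs 12.6-fold above them (7.48 to 23.0). Liver glycogen phosphorylase Pygl stood at 213 in KO EBs, 438 in WT EBs, 89.1 in KO ESCs and 144 in WT ESCs. The 7 genes of the pentose phosphate pathway, which makes NADPH and ribose, all stayed within 2-fold in the 4 comparisons. Among them the dehydrogenase Pgd was 1.801-fold higher (1.69 to 1.92) and the epimerase Rpe 1.495-fold lower (1.33 to 1.68) in KO EBs. Rpia, the isomerase of the same branch, was 1.46-fold higher in WT EBs than in WT ESCs (1.12 to 1.89).

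Of 14 genes of pyruvate entry and its oxidation none was 2-fold apart between KO and WT EBs. Subunit Dld was 1.56-fold lower (1.43 to 1.71), and Pdp2, a phosphatase that opposes the Pdk kinases, was 1.61-fold higher (1.37 to 1.91). The kinase Pdk2 stood at 145 in KO EBs, 178 in WT EBs, 192 in KO ESCs and 139 in WT ESCs, and the carrier subunit Mpc2 at 112 in KO EBs, 129 in WT EBs, 187 in KO ESCs and 204 in WT ESCs. Pdk1 was thus the kinase of its family that differed by 2-fold; Pdk2, Pdk3 and Pdk4 had log2 folds of −0.29, −0.19 and −0.55 in KO EBs against WT EBs.

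Of 5 oxygen-sensing genes Epas1, which encodes the HIF2 alpha subunit, was 2-fold apart. It stood at 482 in KO EBs, 2143 in WT EBs, 747 in KO ESCs and 1581 in WT ESCs, 4.44-fold lower in KO EBs (3.93 to 5.03) and 2.12-fold lower in KO ESCs (1.98 to 2.27). Both KO libraries lay below both WT libraries, as they did for Hif1a. The ubiquitin ligase adaptor Vhl stood at 261 in KO EBs and 232 in WT EBs, and Egln2 at 152 in KO EBs and 149.6 in WT EBs. Of 20 further reported hypoxia targets 2 were higher and 3 lower in KO EBs. The carbonic anhydrase Car12 stood at 56.7 in KO EBs and 323 in WT EBs, 5.69-fold lower (4.01 to 8.27). Car12 was also 23.0-fold higher in WT EBs than in WT ESCs (14.2 to 39.6), and Wsb1 2.41-fold lower (2.03 to 2.87).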

How the data were processed

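Ribosome footprints were measured in 1 library each of KO EBs, WT EBs, KO ESCs and WT ESCs, grouped by their titles. RNase I digestion and a sucrose cushion gave the footprints, per the labels' protocols. The submitters' processing notes list HTSeq 0.6.0, TopHat2 2.0.10, Bowtie, CASAVA 1.8.2, DESeq and the build mm10, with no roles or order and without annotation version or strand. The deposited signal is a read count per RefSeq coding sequence that the authors divided by 1 factor per library. Divided by a library's smallest step, 100% of its values came out whole within 0.01, and reads were recovered from that step. The 27442 entries were summed to 20716 genes with RefSeq symbols of GRCm38.p6, the assembly of mm10. The 5 summary entries stayed out of library sizes: reads with no unique place made up 48.4% to 55.7% of the table's reads, ambiguous reads 8.62% to 10.5% and reads on no feature 7.25% to 9.88%.

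Folds used a pseudocount of 1 and a mean of at least 25, with conditional Clopper-Pearson intervals at 95%. Counting noise is the only error these intervals hold; the ESC libraries are the more precise. edgeR 4.0.16 and DESeq2 1.42.0 (R 4.3.3) were run on recovered reads, and the edgeR step was tested on simulated data. Alternatives covered pseudocount, filter, scaling, entries and fold limit. Named were all members, and of each further list the highest and lowest gene of KO EBs against WT EBs and of WT EBs against WT ESCs that reached 100 in 1 of the pair. Some genes that this rule takes are left out of the text. Members, lists and tests were chosen with earlier results of these data known.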

Additional observations from a re-analysis of the deposited data

Results flagged for a closer look

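For 6 of the 25 members KO and WT differed in opposite directions at the 2 stages, with both counting intervals away from 1. How many of all genes did so was not counted, so the number cannot be read as a trait of the members. The values are the EB change of KO cells minus that of WT cells on the log2 scale, with 1 library per group; the differences were not tested. It was −1.78 for Pdk1, −1.01 for Egln3 and −0.51 for Pfkl, each lower than WT in KO EBs and higher than WT in KO ESCs. It was 1.28 for Pfkp, 0.85 for Slc2a3 and 0.72 for Slc2a1, each higher than WT in KO EBs and lower than WT in KO ESCs.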

How the results depend on the processing

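Member folds kept their sign under each alternative wherever they were at least 2-fold, and 75 recomputed member counts stayed within 1.5 times the reported one, while 13 did not. With no filter, 1 member was 2-fold higher in KO EBs against WT EBs (reported 0) and 3 differed upward in EB change (reported 1). With every library at the same total, 2 members were lower in KO EBs (reported 4) and 0 in KO ESCs (reported 1); with TMM factors 2 were lower in KO EBs, and 2 differed downward in EB change (reported 4). Hk1, the 1 member lower in KO EBs than in KO ESCs, dropped out at a mean of 100, with a pseudocount of 10 and among members with over 95% of windows countable, each giving 0; the last alternative was chosen after seeing the data. At a fold limit of 1.5, KO ESCs had 4 higher (reported 0) and 3 lower (reported 1), KO EBs 2 lower than KO ESCs (reported 1) and WT EBs 2 lower than WT ESCs (reported 0). The same total moved the median of all genes by over 0.1 between KO and WT, to 0.12 in ESCs and 0.05 in EBs, against −0.00 and −0.07 as deposited.

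For EBs against ESCs over both genotypes, edgeR called 20 genes higher and 5 lower; without a filter it called 243 and 95, with no covariate 0 and 0, and DESeq2 called 274 and 101. For KO against WT over both stages edgeR called 0 and 0, without a filter 204 and 73, and DESeq2 251 and 71; the cause of these gaps was not tested. No paired analysis was possible because the labels carry no replicate numbers and each group has 1 library; the fit of EBs against ESCs had genotype, not a replicate, as its block, and its calls depend on that term. Depth limits Pgk1, Pfkfb3, Ankrd37, Bnip3l, Higd1a and Hk1 most. Copied or shared coding sequence limits all members outside the 15 with over 95% of windows countable.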

Other observations

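Some genes outside the member list stood further apart than any member; they were chosen after their values were seen. Hkdc1, a hexokinase-domain protein of epithelia, had a normalised count of 47.8 in KO EBs, 1492 in WT EBs, 11.2 in KO ESCs and 9.34 in WT ESCs. KO EBs and WT EBs differed by a log2 fold of −4.94, with WT EBs high and the other libraries low. The vasoactive peptide adrenomedullin, Adm, a reported hypoxia target, had 64 reads in KO ESCs and 4 in WT ESCs, 10.97-fold higher in KO ESCs (interval 4.08 to 41.5). In EBs Adm stood at 64.2 in KO and 42.1 in WT. Within the member list, Bnip3 held 73.1% of the reads of Bnip3 and Bnip3l in KO EBs (exact interval 66.7 to 78.8), 64.5% in WT EBs (57.8 to 70.9), 62.1% in KO ESCs (56.5 to 67.6) and 39.4% in WT ESCs (32.6 to 46.5), with most windows of both genes copied elsewhere. Hk2 held between 96.9% and 98.0% of the reads of Hk2 and Hk1 in the 4 libraries, but 4.34% of the Hk1 windows can be counted.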
